A study of Mus musculus with 11 samples.

Results

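Target genes of the tumour suppressor p53 were followed in mouse melanoma cells that lacked or kept the DNA repair enzyme UNG, with and without an inhibitor of the checkpoint kinase ATR. The set was a list of 36 named genes, of which 34 were in the deposited expression table of 14528 genes; Pmaip1 and Ddb2 were not analysed here. Members were kept where their mean over all 11 libraries was at least 0.5 FPKM (fragment counts scaled by gene length and library depth), which 33 of the 34 reached. Fas (0.534 FPKM) and Eda2r (0.791 FPKM) lay just inside this limit and Perp (0.385 FPKM), a membrane protein of cell junctions and apoptosis, lay just outside it. In 30 of the 33 the mean of each group also reached 0.5 FPKM. Fas, Eda2r and Epha2 were lower in at least 1 DMSO group. Of these, Fas and Eda2r passed through their level under the inhibitor, while Epha2 was lower only in ΔUNG DMSO (0.41 FPKM).

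RNA was sequenced from B16F10, a mouse melanoma cell line, as a Cas9 control line labelled wild type and as knockout clones of Ung named ΔUNG and ΔUNG_2. All 3 lines were given either DMSO, the solvent, or 5 µM of AZD6738 (here ATRi) for 48 h. The control DMSO, control ATRi, ΔUNG DMSO, ΔUNG ATRi and ΔUNG_2 DMSO groups held 2 libraries each and the ΔUNG_2 ATRi group held 1. Each knockout line is a single clone, so loss of UNG and other differences between clones cannot be told apart. The labels call the libraries biological replicates without saying whether the cultures were separate, and p-values therefore reflect the spread among them, which may be technical.

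p53, encoded by Trp53, is a transcription factor that is kept low by the ubiquitin ligase Mdm2 and accumulates when DNA is damaged or replication is stalled. It then raises genes that halt the cell cycle, start apoptosis, repair DNA and, through Mdm2 and other feedback genes, switch p53 itself off again. ATR is the kinase that answers stalled replication forks, and the related kinase ATM can also signal to p53.

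The libraries held 17014697 to 28464757 fragments behind the FPKM values, and 3 fragments, the limit that a count of 0 allows, corresponded to 0.105 to 0.176 FPKM for a gene of 1 kb (counting error only). Ung was at 2.48 to 2.999 FPKM in the control, 0.675 to 1.39 in ΔUNG and 1.74 to 2.01 in ΔUNG_2. Under DMSO its level was below that of the control in ΔUNG, with a log2 fold change of -1.03 ± 0.23 (SE; limma adjusted p = 0.0246); in ΔUNG_2 the difference of -0.40 ± 0.23 did not pass (adjusted p = 0.355). All 7 melanocyte markers examined, among them Mlana and Pmel, were in the table, and their summed level was 7220 to 8742 FPKM under DMSO and 7624 to 9611 under ATRi. The 3 fibroblast markers summed to 1.43 to 2.46 FPKM under DMSO and 0.651 to 1.29 under ATRi, endothelial Pecam1 was at 0.00873 to 0.0519 and 0.0954 to 0.152 FPKM, and epithelial Cdh1 did not exceed 0.727 FPKM in any library. Of 3 macrophage markers only Cd68, a lysosomal protein, was analysed here, at 2.11 to 4.52 FPKM under DMSO and 8.70 to 12.02 under ATRi; the leukocyte markers were not analysed here. The part of these markers in the results was not tested.

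The first question was which p53 targets changed under ATRi within each line. A gene was counted as changed at a limma adjusted p below 0.05 (Benjamini-Hochberg). In the control, 25 of 33 members rose and 0 fell, against 16.8% of the 11323 tested genes that rose and 16.8% that fell. In ΔUNG, 25 rose and 1, Ddit4, fell, against 16.5% of all genes that rose and 19.4% that fell. In ΔUNG_2, 25 rose and 0 fell, against 18.1% that rose and 17.3% that fell. The same 25 genes rose in all 3 lines, as did 9.8% of all genes. Of the 30 members above 0.5 FPKM in each group, 22 rose in every line, with medians of 0.59, 0.71 and 1.005.

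Fold changes are differences of log2(FPKM + 0.5), which understates the change of low genes, and are given with their standard error (SE). The median over the 33 members was 0.72 in the control, 0.93 for ΔUNG and 1.11 for ΔUNG_2, against -0.005, -0.020 and -0.005 over all genes tested. The members reached from -0.48 to 2.37 in the control, from -1.01 to 2.90 in ΔUNG and from -0.47 to 3.14 in ΔUNG_2. These 25 members also had every ATRi library above every DMSO library over all lines, as had 14.8% of all genes tested. The members were chosen with earlier results of these libraries known, so their counts describe the list. Exons of Cdkn1a, Ei24, Plk3 and Rrm2b overlap a gene on the other strand over 7.68%, 6.66%, 3.32% and 8.04% of their length; the strand setting of the counting is not stated, so reads there cannot be told apart.

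**Figure D1:**
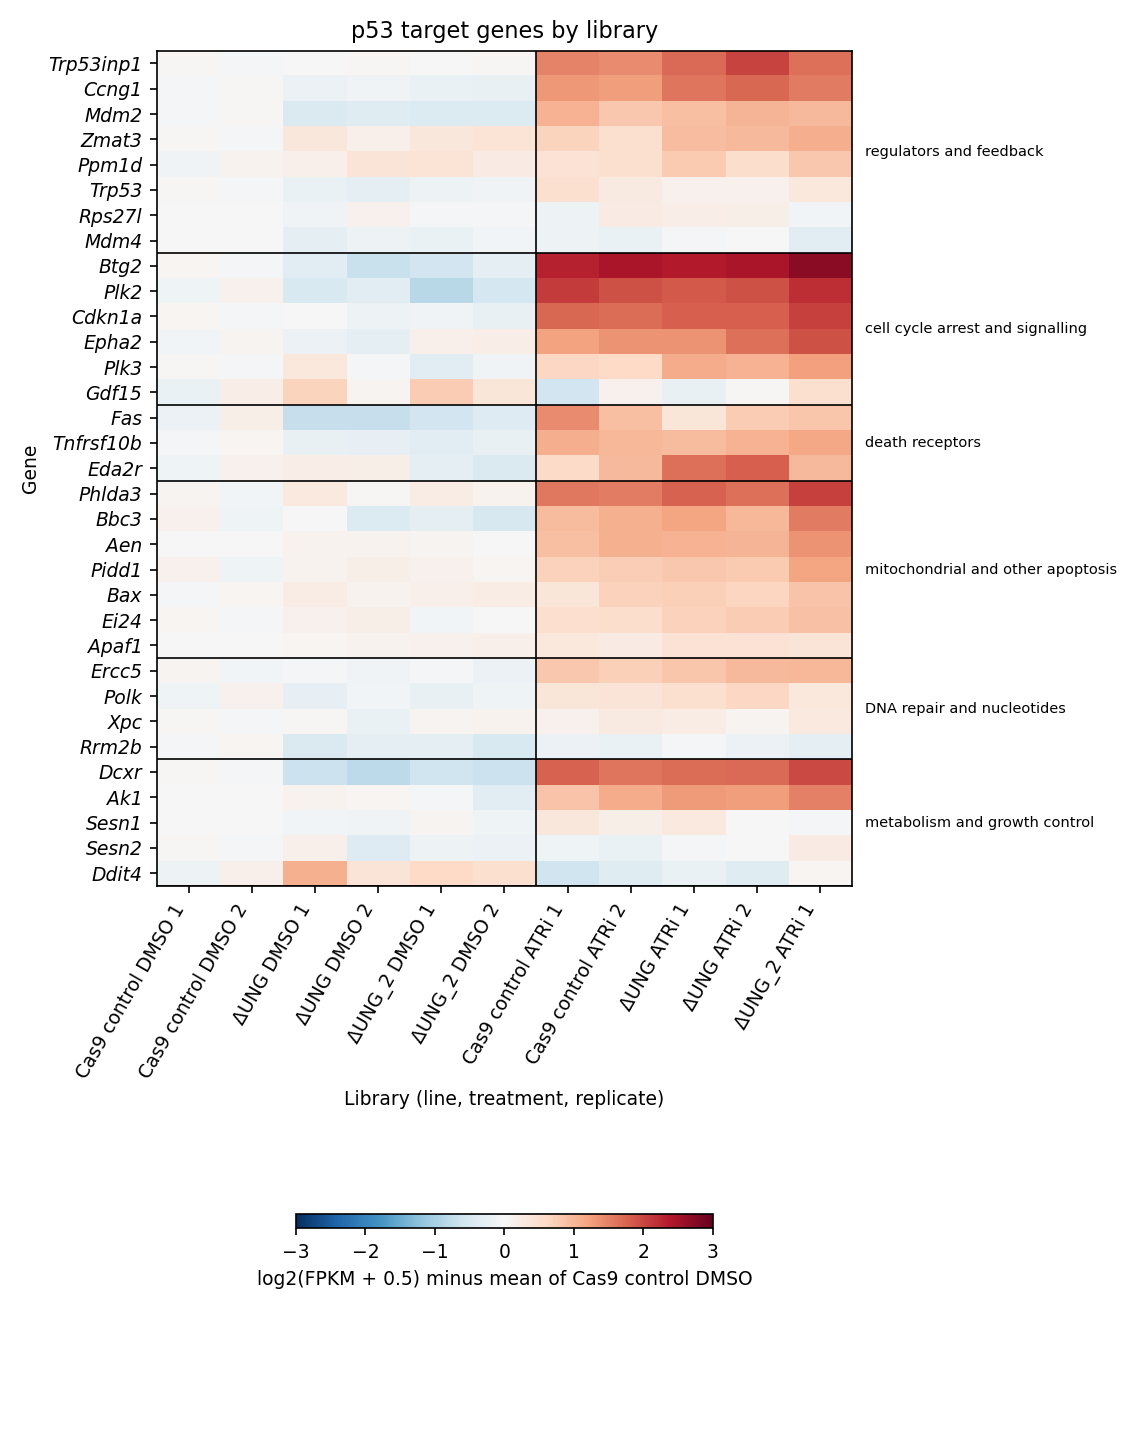
Level of each of the 33 p53 target genes (rows, grouped by role) in each of the 11 libraries (columns), as log2(FPKM + 0.5) minus the mean of the control DMSO libraries. The 5 ATRi columns on the right are red or pale red for 25 genes, while Mdm4, Rrm2b, Gdf15 and Ddit4 stay pale or turn blue.

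Measured against the control DMSO mean, 27 to 30 of the 33 members were higher in each ATRi library, with a median of 0.66 to 0.98 on the log2 scale. In the DMSO libraries of the clones, 11 to 18 members were higher, with a median of -0.12 to 0.01. The median of all genes tested was -0.0115 to -0.0017 in the ATRi libraries and -0.0052 to 0.0086 in those DMSO libraries. In the map of all members by library, the ATRi libraries of the control had the smaller medians (0.66 and 0.72), and those of ΔUNG (0.83 and 0.97) and ΔUNG_2 (0.98) the larger ones. In bulk RNA a change in RNA per cell and a change in the share of cells that carry it cannot be told apart.

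Among regulators and feedback genes, 6 of 8 rose in each of the 3 lines, with a median of 0.52 in the control, 0.54 for ΔUNG and 0.60 for ΔUNG_2. Trp53 itself (chromosome 11, 69580359 to 69591873) had 39.1 and 36.7 FPKM in control DMSO, 33.1 and 31.0 for ΔUNG DMSO and 34.1 and 34.9 for ΔUNG_2 DMSO. The ATRi libraries had 52.7 and 45.9 FPKM in the control, 41.5 and 41.7 for ΔUNG and 47.3 for ΔUNG_2. All 5 ATRi libraries lay above all 6 DMSO libraries, with the highest value in control ATRi. The rise was small, 0.37 ± 0.08 in the control (adjusted p = 0.00559), 0.37 ± 0.08 in ΔUNG (adjusted p = 0.00499) and 0.45 ± 0.09 in ΔUNG_2 (adjusted p = 0.00595). It no longer passed in any line with libraries rescaled to the same FPKM sum (adjusted p = 0.174, 0.137 and 0.139), nor in the control without its DMSO replicate 2 (adjusted p = 0.0503). That rescaling is set largely by Gm23935, a single gene that held 10.3% to 26.3% of the FPKM sum of a library.

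Mdm2, the ubiquitin ligase that marks p53 for degradation, lies on chromosome 10 from 117688875 to 117710758. It had 31.9 and 33.3 FPKM in control DMSO, 23.9 and 25.2 for ΔUNG DMSO and 24.2 and 24.4 for ΔUNG_2 DMSO. Under ATRi the values were 67.5 and 57.3 in the control, 61.3 and 66.6 for ΔUNG and 64.7 for ΔUNG_2. The clones thus started lower under DMSO, while the ATRi libraries of the 3 lines lay within one range. Mdm2 rose by 0.92 ± 0.08 in the control (adjusted p = 5.88e-05), 1.36 ± 0.08 in ΔUNG (adjusted p = 8.13e-06) and 1.39 ± 0.10 in ΔUNG_2 (adjusted p = 2.84e-05).

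Ccng1, cyclin G1, a feedback gene that acts on Mdm2, had 84.3 and 87.4 FPKM in control DMSO, 75.6 and 79.3 for ΔUNG DMSO and 75.2 and 73.2 for ΔUNG_2 DMSO. With ATRi its level was 212 and 204 FPKM in the control, 264 and 287 for ΔUNG and 252 for ΔUNG_2, so each clone library lay above both control libraries. Its fold changes were 1.27 ± 0.07, 1.82 ± 0.07 and 1.76 ± 0.08 for control, ΔUNG and ΔUNG_2, and all passed. Trp53inp1, a nuclear protein that promotes p53 activity, was at 27.5 to 29.0 FPKM in the 6 DMSO libraries, and at 80.5 and 75.9 in control ATRi, 92.9 and 117 for ΔUNG ATRi and 89.3 for ΔUNG_2 ATRi. It was nearly level across lines under DMSO and rose by 1.46 ± 0.10, 1.85 ± 0.10 and 1.62 ± 0.12.

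Zmat3, an RNA-binding zinc finger protein, was at 8.86 to 12.3 FPKM under DMSO and 12.9 to 19.9 under ATRi and rose by 0.58, 0.71 and 0.71 in control, ΔUNG and ΔUNG_2. Ppm1d, the Wip1 phosphatase that reverses damage signalling, was at 6.93 to 9.98 FPKM under DMSO and 10.3 to 13.5 under ATRi. Its rises of 0.46, 0.38 and 0.49 passed, and they were lost with the same FPKM sum (adjusted p = 0.0926, 0.151 and 0.118). They were also lost without control ATRi replicate 2 (adjusted p = 0.0632) or control DMSO replicate 1 (0.103), and without ΔUNG_2 DMSO replicate 2 (0.11). In ΔUNG the Ppm1d rise fell to 0.25 without ATRi replicate 1 and to 0.26 without DMSO replicate 1, and was lost in both cases. It was also lost there with no filter (limma adjusted p = 0.0528) and with only the groups compared (0.068). Mdm4, which binds and restrains p53, and Rps27l, a ribosomal-like protein that binds Mdm2, were called in none of the lines. Rps27l had the highest mean of all members, with 181 to 240.3 FPKM, but shares sequence with Rps27, and how such reads were assigned is not given in the sources used here.

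Among genes of cell cycle arrest and signalling, 5 of 6 rose in every line, and this group had the largest median of the 6 role groups, 1.49 in the control, 1.80 for ΔUNG and 1.97 for ΔUNG_2. Cdkn1a, which encodes the cyclin-dependent kinase inhibitor p21 and lies on chromosome 17 (29090976 to 29100727), had a level of 60.9 and 55.6 FPKM in control DMSO, 58.7 and 51.9 for ΔUNG DMSO and 53.7 and 49.7 for ΔUNG_2 DMSO. In ATRi libraries the values were 193 and 187 FPKM in the control, 202 and 204 for ΔUNG and 242 for ΔUNG_2. Under DMSO the ΔUNG libraries overlapped those of both other lines, while both ΔUNG_2 libraries lay below both control libraries. The single ΔUNG_2 ATRi library was the highest. Cdkn1a rose by 1.70 ± 0.08 in the control, a 3.26-fold ratio of mean FPKM (adjusted p = 3.95e-06), by 1.87 ± 0.08 in ΔUNG, 3.67-fold (adjusted p = 1.6e-06), and by 2.21 ± 0.10 in ΔUNG_2, 4.67-fold (adjusted p = 2.54e-06).

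Btg2, an antiproliferative protein that acts on messenger RNA decay, lies on chromosome 1 from 134075170 to 134079120 and had the largest rise of all members in every line on the log2(FPKM + 0.5) scale. As a ratio of mean FPKM its rise in ΔUNG_2 was 10.2-fold, against 11.3-fold for the much lower Fas. Its level was 4.04 and 3.71 FPKM in control DMSO, 3.02 and 2.25 for ΔUNG DMSO and 2.45 and 3.08 for ΔUNG_2 DMSO. It reached 20.99 and 23.2 FPKM in control ATRi, 22.1 and 23.2 for ΔUNG ATRi and 28.2 for ΔUNG_2 ATRi. No DMSO library came near the ATRi libraries, and those of the control and ΔUNG overlapped. The fold changes were 2.37 ± 0.13 in the control (adjusted p = 6.98e-06), 2.90 ± 0.13 in ΔUNG (adjusted p = 2.18e-06) and 3.14 ± 0.16 in ΔUNG_2 (adjusted p = 5.66e-06). By size of fold change Btg2 ranked 18 of all 11323 genes tested in the control, 9 for ΔUNG and 8 for ΔUNG_2.

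Plk2, a polo-like kinase of the stress response whose gene spans chromosome 13 from 110395046 to 110400844, was at 3.46 and 4.29 FPKM in control DMSO, 2.66 and 2.997 for ΔUNG DMSO and 1.93 and 2.51 for ΔUNG_2 DMSO. After ATRi it stood at 18.2 and 15.9 FPKM in the control, 15.1 and 15.8 for ΔUNG and 19.7 for ΔUNG_2. Plk2 rose by 2.01 ± 0.13 in the control (adjusted p = 1.19e-05), 2.26 ± 0.13 in ΔUNG (adjusted p = 6.81e-06) and 2.90 ± 0.16 in ΔUNG_2 (adjusted p = 8.01e-06). ΔUNG_2 held both the lowest DMSO values and the highest ATRi value of Plk2.

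Its relative Plk3 was at 3.38 to 5.56 FPKM under DMSO, with 6.97 and 6.83 in control ATRi, 10.1 and 9.58 for ΔUNG ATRi and 10.8 for ΔUNG_2 ATRi, and rose by 0.61, 0.95 and 1.44. Epha2, an ephrin receptor kinase, rose from 0.377 to 0.726 FPKM under DMSO to 1.95 to 3.48 under ATRi, with fold changes of 1.28, 1.73 and 1.73. Gdf15, a secreted stress cytokine, was not called in any line: it was at 1.09 to 2.59 FPKM under DMSO and 0.721 to 2.06 under ATRi, and changes of -0.22 ± 0.28, -0.47 ± 0.28 and -0.07 ± 0.34 did not pass.

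**Figure D2:**
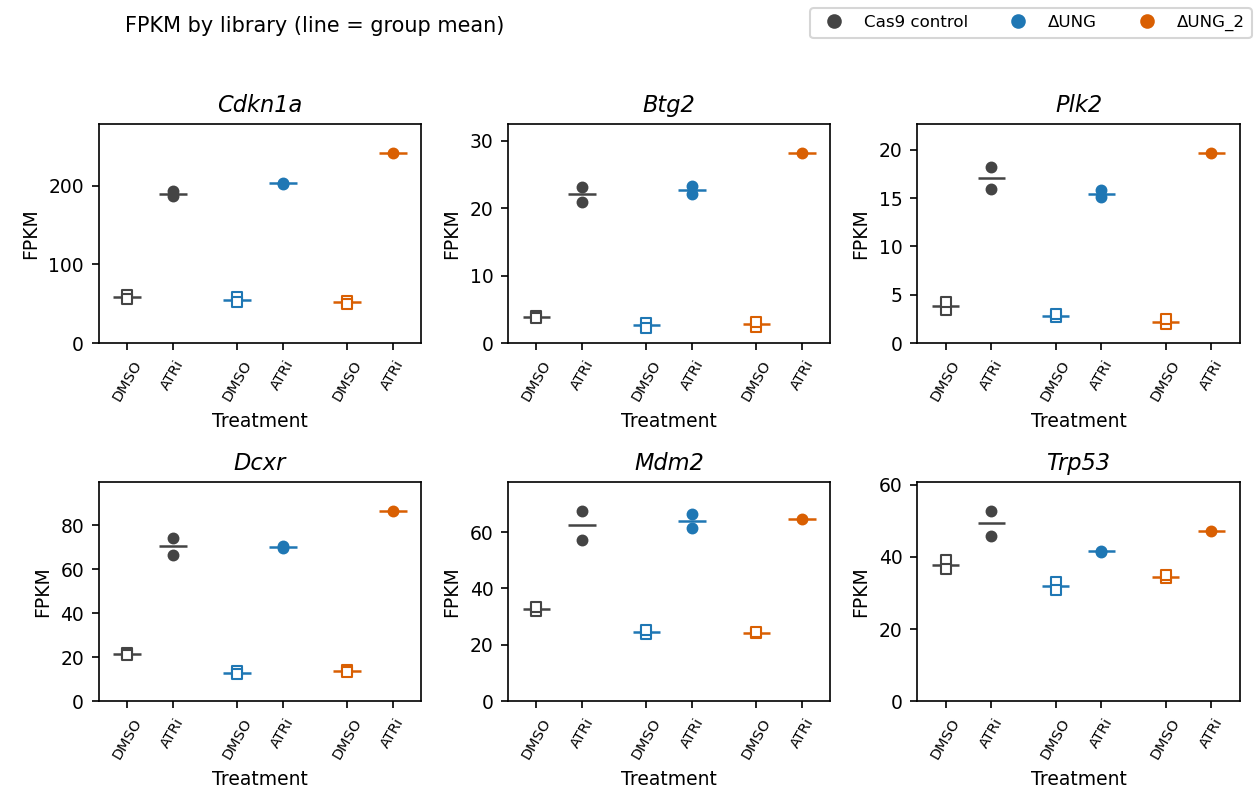
FPKM of 6 p53 target genes in each library (squares DMSO, circles ATRi, horizontal lines group means) for the control, ΔUNG and ΔUNG_2; each vertical axis starts at 0. Cdkn1a, Btg2, Plk2 and Dcxr separate widely by treatment, Trp53 moves least of the 6, and the clones lie below the control under DMSO for Dcxr and Mdm2.

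All 3 death receptor genes rose in every line, but Fas and Eda2r passed the limit of 0.5 FPKM only through their ATRi level, so the rise of these 2 is a description and only that of Tnfrsf10b is independent of the filter. Tnfrsf10b, the mouse TRAIL receptor, had 5.05 and 5.47 FPKM in control DMSO, 4.44 and 4.38 for ΔUNG DMSO and 4.13 and 4.40 for ΔUNG_2 DMSO. It had 11.8 and 10.9 in control ATRi, 10.7 and 11.3 for ΔUNG ATRi and 12.3 for ΔUNG_2 ATRi, and rose by 1.04 ± 0.08, 1.22 ± 0.08 and 1.43 ± 0.10. The ATRi libraries of all lines lay within one narrow range.

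Fas and Eda2r, receptors of the tumour necrosis factor receptor family, were low, so their values rest on few fragments. Fas had 7 and 14 fragments (0.212 and 0.423 FPKM) in control DMSO, 0 and 0 for ΔUNG DMSO and 2 and 4 for ΔUNG_2 DMSO. The treated libraries had 86 and 50 fragments (1.68 and 1.01 FPKM) in the control, 20 and 35 for ΔUNG and 34 for ΔUNG_2. Fas was therefore at least 7.48-fold higher under ATRi in ΔUNG, taking 3 fragments per library as the limit for 0, and its fitted rises were 1.16, 1.27 and 1.31. With Fas at that bound the median of the members in ΔUNG stayed at 0.93. The control rise of Fas did not pass without DMSO replicate 1 (adjusted p = 0.0517). Eda2r was at 0.0822 to 0.411 FPKM under DMSO and 0.680 to 2.26 under ATRi, highest in ΔUNG, and rose by 0.78, 1.54 and 1.35. Over all alternatives these rises ranged from 0.52 to 1.54 in the control, 1.16 to 2.38 in ΔUNG and 0.89 to 3.20 in ΔUNG_2, and those of Fas from 0.82 to 2.06, 0.77 to 5.49 and 0.85 to 3.46. The Eda2r call in the control was lost with only the 4 control libraries fitted (limma adjusted p = 0.0513). It was also lost without ATRi replicate 2 or without DMSO replicate 1, where the Eda2r rise was 0.57 and 0.64.

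Of the mitochondrial and other apoptosis genes, all 7 tested rose in each line, with a median of 0.72 in the control, 0.65 for ΔUNG and 1.08 for ΔUNG_2. Phlda3, a membrane-binding protein that restrains Akt, encoded on chromosome 1 from 135766119 to 135769136, was at 57.5 and 51.4 FPKM in control DMSO, 67.0 and 55.5 for ΔUNG DMSO and 63.4 and 58.8 for ΔUNG_2 DMSO. In ATRi libraries the values were 163 and 159 in the control, 186 and 171 for ΔUNG and 227 for ΔUNG_2. Phlda3 rose by 1.56 ± 0.10 (adjusted p = 1.04e-05), 1.54 ± 0.10 (adjusted p = 9.59e-06) and 1.89 ± 0.12 (adjusted p = 1.42e-05), and the single ΔUNG_2 library was again the highest.

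Bbc3, the BH3-only protein PUMA, was at 6.18 to 9.82 FPKM under DMSO, and had 17.7 and 19.1 in control ATRi, 20.997 and 18.1 for ΔUNG ATRi and 27.3 for ΔUNG_2 ATRi. It rose by 1.00 ± 0.15, 1.29 ± 0.15 and 1.95 ± 0.18. Bax, which forms pores in the outer mitochondrial membrane, started high, at 66.5 to 80.9 FPKM, and reached 89.1 to 125 under ATRi, with rises of 0.53 ± 0.10, 0.52 ± 0.10 and 0.66 ± 0.13. The effector Bax thus changed by less than its activator Bbc3 on the log2 scale in these libraries, a difference that was not tested. Exons of Bax share 12.2% of their length with Gm45808 on the same strand, and how such reads were assigned is not given in the sources used here.

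Aen, an apoptosis-linked nuclease, went from 9.32 to 10.1 FPKM under DMSO to 18.02 to 24.4 under ATRi, with rises of 0.99, 0.93 and 1.30. Pidd1, the scaffold that activates caspase-2, was at 4.50 to 5.75 FPKM and 8.39 to 11.9, with rises of 0.72, 0.65 and 1.08. Ei24, a protein of the endoplasmic reticulum, was at 21.3 to 25.2 FPKM and 32.0 to 41.6, with rises of 0.52, 0.57 and 0.93. Apaf1, the core of the apoptosome, changed least of those that passed, from 13.1 to 14.8 FPKM under DMSO to 15.7 to 17.9 under ATRi. Its rises of 0.28, 0.34 and 0.23 were lost with the same FPKM sum (adjusted p = 0.365, 0.184 and 0.52). The control rise was also lost without DMSO replicate 1, where it was 0.26. That in ΔUNG_2 was lost without DMSO replicate 1 or replicate 2, where it was 0.22 and 0.24. It was lost as well with no trend, with only the groups compared and with the replicate block.

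DNA repair and nucleotide genes were divided: 2 of the 4 tested rose in every line. Ercc5, the XPG endonuclease of nucleotide excision repair, was at 10.8 to 13.1 FPKM under DMSO and 20.5 to 24.9 under ATRi, and rose by 0.76 ± 0.09, 0.98 ± 0.09 and 1.11 ± 0.11. Polk, a translesion DNA polymerase, was at 5.35 to 7.05 FPKM and 8.12 to 10.3, with rises of 0.37, 0.71 and 0.49. The Polk call in the control was lost without any 1 of ATRi replicate 1 (adjusted p = 0.0705), ATRi replicate 2 (0.0846) or DMSO replicate 1 (0.166) and with the same FPKM sum (0.24). That in ΔUNG_2 was lost without DMSO replicate 1 (0.0745) and with the same FPKM sum (0.162).

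Xpc, a damage sensor of the same repair pathway, changed by 0.21 ± 0.10, 0.22 ± 0.10 and 0.20 ± 0.12, none of which passed; in ΔUNG it passed without DMSO replicate 1 (adjusted p = 0.0402). Rrm2b, the p53-inducible subunit of ribonucleotide reductase, had 3.63 and 3.98 FPKM in control DMSO and 3.29 and 3.26 in control ATRi, but 2.70 and 2.99 in ΔUNG DMSO and 3.72 and 3.30 in ΔUNG ATRi. The treated libraries lay lower in the control and higher in ΔUNG. Neither change passed (-0.19 ± 0.11 and 0.26 ± 0.11), and the difference between them, 0.45 ± 0.16, did not pass either (adjusted p = 0.288).

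Metabolism and growth control was a mixed group, with 2 of 5 genes higher in every line. Dcxr, a reductase of dicarbonyls and sugars, lies on chromosome 11 from 120725399 to 120727281. It had 22.1 and 20.8 FPKM in control DMSO, 13.5 and 12.3 for ΔUNG DMSO and 14.0 and 13.5 for ΔUNG_2 DMSO. Under ATRi it reached 74.3 and 66.6 FPKM in the control, 69.6 and 70.5 for ΔUNG and 86.4 for ΔUNG_2. Under DMSO both clones lay below the control without overlap, while under ATRi ΔUNG fell between the control libraries. Dcxr rose by 1.69 ± 0.08 in the control, a 3.28-fold ratio of mean FPKM (adjusted p = 3.95e-06), by 2.397 ± 0.08 in ΔUNG, 5.43-fold (adjusted p = 3.16e-07), and by 2.61 ± 0.09 in ΔUNG_2, 6.29-fold (adjusted p = 1.26e-06).

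Ak1, an adenylate kinase, was at 12.96 to 17.9 FPKM under DMSO, and had 30.3 and 36.3 in control ATRi, 40.7 and 40.0 for ΔUNG ATRi and 47.8 for ΔUNG_2 ATRi, with rises of 0.99, 1.19 and 1.70. Sesn1 and Sesn2, sestrins that restrain mTORC1, and Ddit4, another brake on mTORC1, rose in none of the lines. Ddit4 had 43.3 and 54.5 FPKM in control DMSO, 102 and 64.0 for ΔUNG DMSO and 73.3 and 68.5 for ΔUNG_2 DMSO. Under ATRi it was lower in each line, at 32.0 and 37.4 in the control, 42.0 and 37.7 for ΔUNG and 51.0 for ΔUNG_2. Its fall in ΔUNG passed (-1.01 ± 0.19, adjusted p = 0.00311); the changes of -0.48 ± 0.19 in the control (adjusted p = 0.0795) and -0.47 ± 0.23 in ΔUNG_2 (adjusted p = 0.149) did not pass. Both of these passed with limma-voom on recovered fragments (adjusted p = 0.0175 and 0.0459) and with only the groups compared in the fit (0.0391 and 0.0162), and the control one also with the same FPKM sum (0.0265). Sesn2 changed by -0.16 ± 0.14, 0.11 ± 0.14 and 0.42 ± 0.17; in ΔUNG it passed without DMSO replicate 1, the higher of its DMSO libraries with 32.2 against 22.2 FPKM (adjusted p = 0.00769). In ΔUNG_2 it passed with only the groups compared (0.0143) and with limma-voom (0.017).

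**Figure D3:**
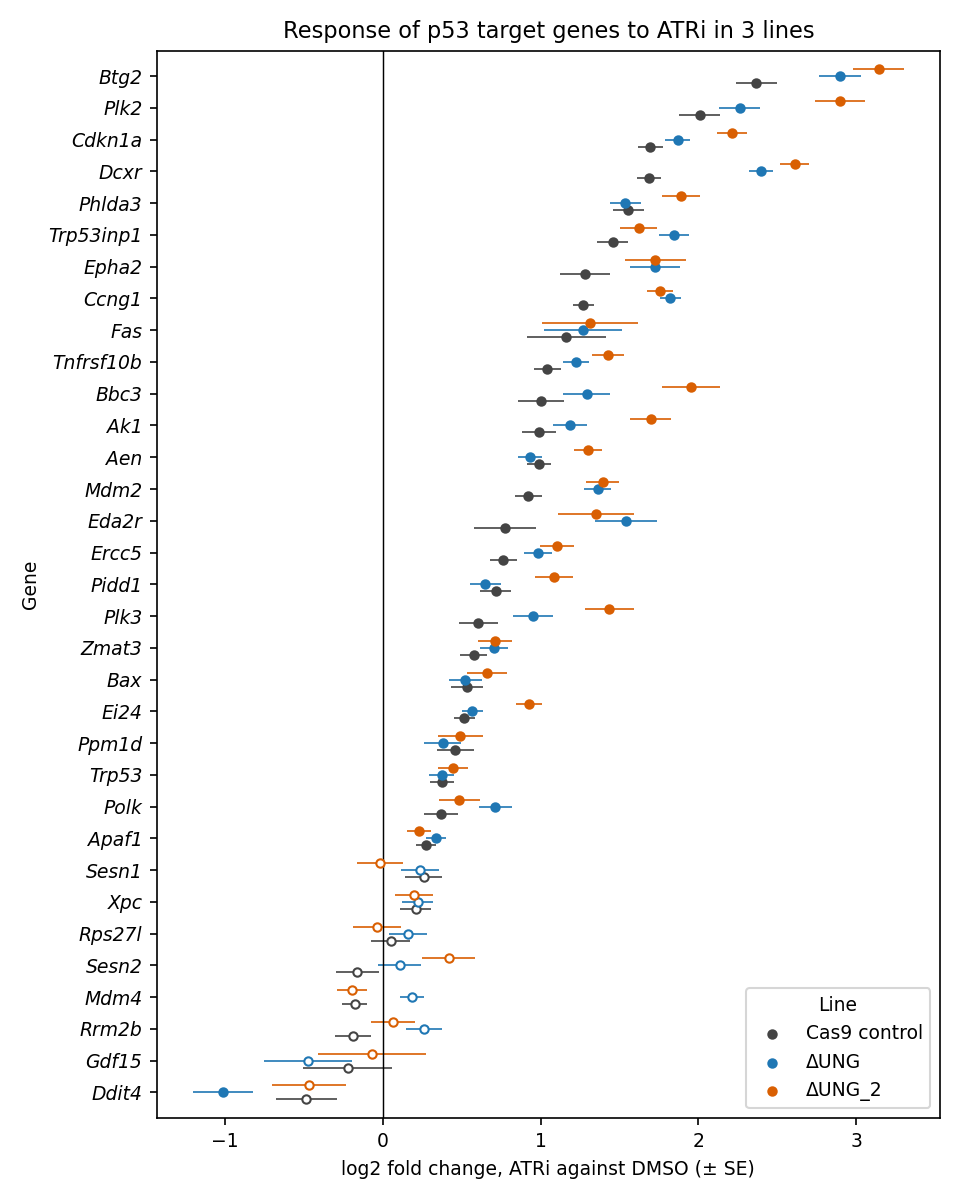
log2 fold change (± SE) of each p53 target gene under ATRi in the control, ΔUNG and ΔUNG_2, ordered by the control value; filled points passed a limma adjusted p of 0.05 and open points did not. Points are filled in all 3 lines from Btg2 at the top down to Apaf1, and the 8 genes below are open except Ddit4 in ΔUNG.

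Among the 500 largest fold changes of the 11323 genes were 14 members in the control, 17 for ΔUNG and 19 for ΔUNG_2. The cumulative curves of members and of all genes set the whole list beside this background.

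**Figure D4:**
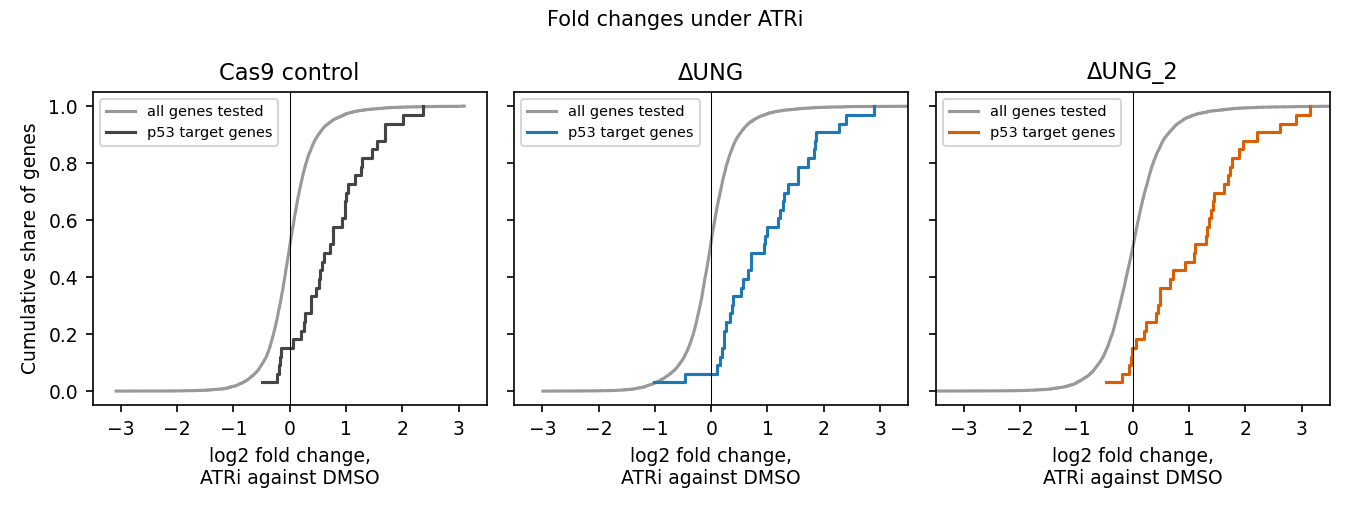
Cumulative share of genes (vertical axis, 0 to 1) by log2 fold change under ATRi for the 33 p53 target genes (coloured) and all 11323 genes tested (grey) in the 3 lines; the horizontal axis ends at -3.5 and 3.5. The member curve lies to the right of the grey one for nearly its whole length, with medians of 0.72, 0.93 and 1.11.

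Start site sequences of the members were read for the p53 decamer, the repeat unit of the p53 response element, which is named here only because its consensus allows several bases at most positions. Windows of 300 bases, from 250 before to 50 after each start, came from RefSeq (GRCm38.p6) and covered 28 of the 36 genes. These 28 genes had 40 windows, so some had more than 1 start. Positions are counted from the start that the window shown belongs to. The decamer equals its own reverse complement in consensus, so 1 scan covers both strands. It was present in 11 of the 28 genes (39.3%), against 9.55% of all 27025 genes and 8.36% of all 32851 windows. The list was drawn up as p53 targets, and a gene with more windows has more places for a match. These shares are therefore a description, and no test was made. Among the 22 members with a window that rose in the control it was in 9, and among the 6 that were not called it was in 2, Rps27l and Sesn1. A pair of decamers at most 13 bases apart, as in a full response element, was in 24 of the 32851 windows (0.0731%) and in 1 member, Cdkn1a. The window of Cdkn1a is shown whole, with its decamers in capitals; they begin at -73 and -51 from the start and are 12 bases apart. As background, the best known elements of Mdm2 lie within its first intron.
Cdkn1a chr17:29090729-29091028, plus strand: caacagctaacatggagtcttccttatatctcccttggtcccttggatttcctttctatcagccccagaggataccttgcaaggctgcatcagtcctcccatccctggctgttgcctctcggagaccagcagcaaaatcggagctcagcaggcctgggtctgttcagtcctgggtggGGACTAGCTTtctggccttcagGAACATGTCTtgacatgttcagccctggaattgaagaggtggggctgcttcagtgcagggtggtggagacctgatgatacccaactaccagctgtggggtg

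For the other members that rose and held a decamer, the stretch around it is shown in the direction of the gene, with the decamer in capitals. A match is a description of these letters and not a bound site.
Mdm2 chr10:117710915-117710964, minus strand: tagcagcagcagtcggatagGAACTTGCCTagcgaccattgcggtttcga
Ccng1 chr11:40755442-40755491, minus strand: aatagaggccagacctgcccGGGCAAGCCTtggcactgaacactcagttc
Trp53 chr11:69580264-69580313, plus strand: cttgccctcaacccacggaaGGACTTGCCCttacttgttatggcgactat
Ppm1d chr11:85311102-85311151, plus strand: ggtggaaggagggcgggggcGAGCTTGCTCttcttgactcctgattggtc
Bax chr7:45467070-45467119, minus strand: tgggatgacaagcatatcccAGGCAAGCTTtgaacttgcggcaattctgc
Aen chr7:78895917-78895966, plus strand: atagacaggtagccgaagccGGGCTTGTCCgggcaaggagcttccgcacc
Ei24 chr9:36797315-36797364, minus strand: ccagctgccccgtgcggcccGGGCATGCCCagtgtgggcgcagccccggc
Polk chr13:96519389-96519437, minus strand: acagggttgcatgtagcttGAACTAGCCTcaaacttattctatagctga

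The decamers lay at -186 to -177 in Mdm2, -185 to -176 in Ccng1, -75 to -66 in Trp53 and -132 to -123 in Ppm1d. In Bax the decamer lay at -201 to -192 and in Ei24 at -10 to -1, while in Aen it lay behind the start, at 11 to 20. In Polk it lay at -231 to -222 from a start inside the gene, which on the minus strand begins at 96542579. Of the 5 largest rises in the control, Btg2, Plk2, Dcxr and Phlda3 had a window without a decamer.

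The next question was whether the knockout clones differed from the control in p53 target levels before treatment. Under DMSO, ΔUNG had 1 member higher and 2 lower than the control, against 5.47% and 3.25% of all genes. ΔUNG_2 had 1 higher and 3 lower, against 4.47% and 3.73%. Both comparisons share the control DMSO libraries. The median over the members was -0.08 for ΔUNG and -0.13 for ΔUNG_2, and that over all genes -0.0059 in ΔUNG_2. Of 33 members, 18 were negative for ΔUNG and 21 for ΔUNG_2, as were 5664 and 5809 of the 11323 genes tested. The ΔUNG median was 0.0116 without ΔUNG DMSO replicate 2, -0.00968 without control DMSO replicate 1 and -0.20 with the same FPKM sum. The ΔUNG_2 median was -0.0764 without ΔUNG_2 DMSO replicate 2, -0.0861 without control DMSO replicate 1 and -0.26 with the same FPKM sum.

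Dcxr was lower in ΔUNG (-0.71 ± 0.08, adjusted p = 0.00074) and in ΔUNG_2 (-0.63 ± 0.08, adjusted p = 0.0013), and passed under every setting run. Mdm2 was lower in both, with differences of -0.40 ± 0.08 (adjusted p = 0.0197) and -0.41 ± 0.08 (adjusted p = 0.0166). Its calls did not hold without any 1 of the libraries compared (adjusted p = 0.0534 to 0.123 in ΔUNG and 0.0736 to 0.114 in ΔUNG_2) or with the same FPKM sum (0.1 and 0.0762). Plk2 passed only in ΔUNG_2 (-0.69 ± 0.13, adjusted p = 0.0127) and was lost without ΔUNG_2 DMSO replicate 1 (0.101), without control DMSO replicate 2 (0.0995) and with only the groups compared (0.055); in ΔUNG it was -0.39 ± 0.13 (adjusted p = 0.102).

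Higher under DMSO were Ddit4 in ΔUNG (0.73 ± 0.19, adjusted p = 0.0468) and Zmat3 in ΔUNG_2 (0.39 ± 0.09, adjusted p = 0.0274). The Ddit4 call rested on the ΔUNG DMSO replicate 1 library, with 102 FPKM: without it the value was 0.39 (adjusted p = 0.17). It was also lost without control DMSO replicate 1 (0.246) or replicate 2 (0.077). Zmat3 was lost without any 1 of ΔUNG_2 DMSO replicate 1 (0.105) and 2 (0.18) and control DMSO replicate 1 (0.101) and 2 (0.155). Btg2 stood at -0.49 ± 0.13 in ΔUNG and just missed the threshold (adjusted p = 0.0507); it passed without ΔUNG DMSO replicate 1 (0.0273).

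Under ATRi, ΔUNG had 4 members higher and 0 lower than the treated control, against 3.01% and 3.13% of all genes. ΔUNG_2 had 3 higher and 0 lower, against 2.74% and 2.27%. These comparisons share the control ATRi libraries. The medians over the members were 0.14 for ΔUNG and 0.29 for ΔUNG_2, against -0.015 and 0.004 over all genes. With the same FPKM sum the members' medians were 0.0484 and 0.19. Of the 30 members above 0.5 FPKM in each group, 3 were higher in ΔUNG. Eda2r passed that limit only through its ATRi level, highest in ΔUNG, so its call is a description. In ΔUNG the 4 higher members were Eda2r (0.95 ± 0.20, adjusted p = 0.022), Trp53inp1 (0.41 ± 0.10, adjusted p = 0.037), Ccng1 (0.40 ± 0.07, adjusted p = 0.0083) and Zmat3 (0.37 ± 0.09, adjusted p = 0.0406). In ΔUNG_2 they were Zmat3 (0.52 ± 0.11, adjusted p = 0.0272), Phlda3 (0.50 ± 0.12, adjusted p = 0.0458) and Ei24 (0.36 ± 0.08, adjusted p = 0.0381). Cdkn1a differed by 0.10 ± 0.08 and 0.35 ± 0.10 (adjusted p = 0.52 and 0.0718) and did not pass in either.

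Each of these calls was lost without at least 1 library. Trp53inp1 rested on ΔUNG ATRi replicate 2, which had 117 FPKM against 92.9 in replicate 1: without it the difference was 0.25 (adjusted p = 0.169), and without control ATRi replicate 1 or 2 adjusted p was 0.0885 and 0.12. Ccng1 was lost without ΔUNG ATRi replicate 2 (0.0736), and Eda2r without ΔUNG ATRi replicate 1 (0.0674), replicate 2 (0.143) or control ATRi replicate 1 (0.12). Zmat3 in ΔUNG was lost without each of the 4 libraries (0.0542 to 0.198) and in ΔUNG_2 without control ATRi replicate 2 (0.0606). Phlda3 and Ei24 were lost without control ATRi replicate 1 (0.111 and 0.113) or replicate 2 (0.08 and 0.0533). No replicate checks the single ΔUNG_2 ATRi library, whose spread was taken to be that of the other groups.

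**Figure D5:**
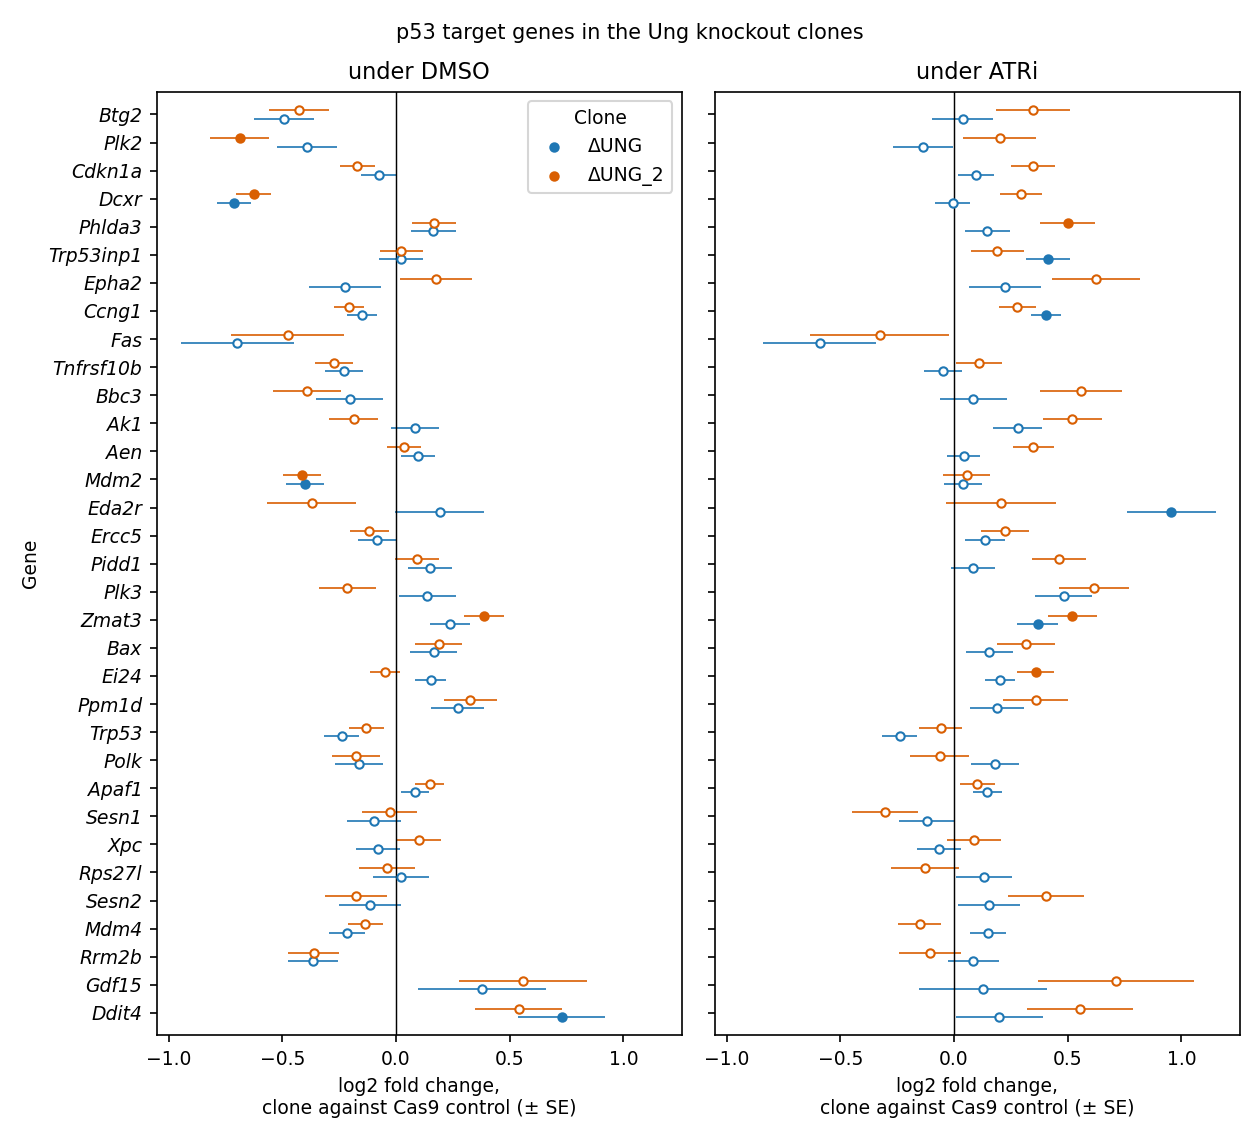
log2 fold change (± SE) of each p53 target gene in ΔUNG and ΔUNG_2 against the control, under DMSO (left) and ATRi (right), in the order of the control response to ATRi; filled points passed a limma adjusted p of 0.05. Under DMSO the filled points left of 0 are Dcxr and Mdm2 in both clones and Plk2 in ΔUNG_2. Under ATRi 26 of 33 lie to the right of 0 in each clone, against 46.7% of all genes tested in ΔUNG and 50.6% in ΔUNG_2.

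Whether the response to ATRi itself differed between lines was tested as the difference of fold changes. For ΔUNG against the control, limma called 0 of 33 members (0.0% of all genes higher, 0.0177% lower). At an unadjusted p below 0.05 it had 9 members and 1524 genes (13.5%), and limma-voom on recovered fragments called 1, Ccng1 (adjusted p = 0.00689; limma 0.55 ± 0.09, adjusted p = 0.073). The difference was positive in 24 of 33 members and in 46.1% of all genes. The members' median was 0.18, against -0.02 over all genes, and was 0.11 without ΔUNG DMSO replicate 2.

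For ΔUNG_2 against the control, 1 member was called, against 0.0353% of all genes. This was Dcxr, with a response larger by 0.92 ± 0.12 (adjusted p = 0.0372). The call was lost without any 1 of the libraries that could be left out (adjusted p = 0.063 to 0.232), and in ΔUNG the difference of 0.71 ± 0.11 did not pass (adjusted p = 0.0627). The difference was positive in 28 of 33 members and in 51.0% of all genes, with a median of 0.33 against 0.006 over all genes. In all, 15 members had an unadjusted p below 0.05 in limma, as had 1396 genes (12.3%). The largest differences among the members not called were those of Bbc3 (0.95 ± 0.23, adjusted p = 0.182), Plk2 (0.89 ± 0.21, 0.168), Plk3 (0.83 ± 0.20, 0.169), Btg2 (0.77 ± 0.21, 0.207) and Ak1 (0.71 ± 0.17, 0.171); that of Bbc3 was above that of Dcxr, with a wider error. Both differences subtract the same control response, and that of ΔUNG_2 rests on a single ATRi library.

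Mdm4 was the other member, beside Rrm2b, whose treated libraries lay on opposite sides in the control and ΔUNG. It had 11.4 and 11.2 FPKM in control DMSO and 10.1 and 9.74 in control ATRi, against 9.28 and 10.1 in ΔUNG DMSO and 10.8 and 11.3 in ΔUNG ATRi. The difference in response was 0.36 ± 0.11 and did not pass (adjusted p = 0.232).

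Further lists of the pathway were read beside the members, also chosen with earlier results known. Of 27 tested genes from a further list of p53 targets, 7 were higher and 5 lower under ATRi in the control, 10 higher and 6 lower in ΔUNG, and 13 higher and 3 lower in ΔUNG_2. Over all genes, 16.8% were higher and 16.8% lower in the control, 16.5% and 19.4% in ΔUNG, and 18.1% and 17.3% in ΔUNG_2, so the share of the list that was lower in the control was near that background. The medians of the list were 0.20, 0.11 and 0.32. Ptp4a3, a phosphatase, rose by 1.45 ± 0.08, 1.59 ± 0.08 and 2.16 ± 0.10. Tob1, an antiproliferative relative of Btg2, rose by 0.81, 0.84 and 0.67. Pml, the nuclear body protein, had fold changes of 0.86 in the control and 0.24 in ΔUNG, and was not compared in ΔUNG_2 here. That difference in response did not pass, and limma called 0 of the 27 genes for it. Pml went from 12.1 and 11.4 FPKM to 22.7 and 20.8 in the control and from 9.78 and 9.97 to 11.7 and 11.8 in ΔUNG. In contrast Pcna, the replication clamp, was among the genes that fell in all 3 lines, with Cd82.

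Of 14 tested upstream regulators of p53, 0 were higher and 3 lower in the control, 1 higher and 3 lower in ΔUNG, and 1 higher and 5 lower in ΔUNG_2, against 16.8%, 19.4% and 17.3% of all genes that were lower; 3 of 14 is near that share. The checkpoint kinase Chek1 fell from 10.3 to 11.5 FPKM in the DMSO libraries to 4.17 to 5.76 in the ATRi libraries, with fold changes of -0.94 ± 0.09, -1.16 ± 0.09 and -1.21 ± 0.12. Chek2, the kinase next to ATM, had -0.41, -0.56 and -0.58 and passed in each line. Atr itself had -0.43 ± 0.14 in the control (adjusted p = 0.0374), -0.21 ± 0.14 in ΔUNG (adjusted p = 0.254) and -0.52 ± 0.17 in ΔUNG_2 (adjusted p = 0.0378). The p53 relative Trp73 did not exceed 0.107 FPKM in any library, and Trp63 was not analysed here.

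Of 10 cell division genes known to be lowered through p21 and the DREAM repressor complex, 9 fell in the control, 10 for ΔUNG and 9 for ΔUNG_2, against 16.8%, 19.4% and 17.3% of all genes, with medians of -0.79, -1.06 and -0.99; Cdc20 did not pass in the control or in ΔUNG_2. Ccnb2, cyclin B2, had 62.3 to 68.3 FPKM in the DMSO libraries and 28.7 to 35.5 in the ATRi libraries. Bub1, a spindle checkpoint kinase, had 30.3 to 36.7 and 11.1 to 16.3 FPKM, and Plk1, the mitotic polo-like kinase, 53.8 to 61.8 and 26.2 to 35.8. In these libraries the relatives Plk2 and Plk1 moved in opposite directions under ATRi, with Plk2 at 2.01 and Plk1 at -0.79 in the control.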

How the data were processed

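Expression values are FPKM per gene and library, as deposited by the authors; HISAT2 was used, per the submitters' processing notes, and the sources used here do not give its version, the counter, the strand setting or the build. Deposited read counts per library were 45692790 to 74973328 clean reads; 1 row of that table was not used. Coordinates are those deposited and equal GENCODE M21 (GRCm38) for 13994 of 14528 genes and 33 of 34 members. FPKM times gene length gave whole fragments (tolerance 0.01) for 100% of values. Libraries were grouped by their titles. limma 3.58.1 (R 4.3.3) was fitted to log2(FPKM + 0.5) of 11323 genes (mean at or above 0.5 FPKM), with 1 mean per group over 11 libraries and a trend in intensity; two-sided p-values were adjusted over all genes, at 0.05. Members and lists were chosen with earlier results of these data known, so no test of the list was made. Named in full were the largest changes in the control, members called between lines, Trp53, Mdm2 and Cdkn1a, and per neighbouring list the smallest p in the control; Cd82, Pcna, Cdc20, Mdm4, Rrm2b and the other members given with library values were chosen after their values were seen. The fit was run on simulated counts with known changes and the same dispersion for every gene. That checks the code and not its accuracy on these libraries. Alternatives were pseudocounts of 0.1 and 1, no filter or one at 2 FPKM, median ratios or the same FPKM sum as scaling, no trend, only the groups compared, a replicate block, limma-voom on recovered fragments and leaving out each library. Promoters came from RefSeq (GRCm38.p6). Figures used matplotlib 3.10.9.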

Additional observations from a re-analysis of the deposited data

Results flagged for a closer look

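Dcxr was the 1 member called in a test of the difference in response to ATRi between lines. Its log2 fold change was 0.92 larger in ΔUNG_2 than in the control (SE 0.12, limma adjusted p = 0.0372). The call rests on a single ΔUNG_2 ATRi library and was lost under several alternatives, among them any 1 library left out. Dcxr under DMSO was 22.1 and 20.8 FPKM in the control and 14.0 and 13.5 in ΔUNG_2, and under ATRi 74.3 and 66.6 against 86.4. ΔUNG_2 minus control was -0.63 under DMSO and 0.29 under ATRi on the log2 scale. Over all alternatives the difference in response ranged from 0.84 to 1.00, with adjusted p from 0.0103 to 0.232.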

How the results depend on the processing

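Under ATRi the number of members that rose was 20 to 25 in the control, 22 to 26 in ΔUNG and 21 to 26 in ΔUNG_2 over all alternatives, and 20 to 24, 24 to 26 and 23 without 1 library. Called under every setting that tested them were 19, 22 and 21 members. The number that fell in the control became 1 with the same FPKM sum, with only the groups compared and with limma-voom, and that in ΔUNG_2 became 1 with only the groups compared and with limma-voom. Genes called in either direction over the whole list of genes tested were 2005 to 4329 in the control. They were 2320 to 4259 in ΔUNG and 2027 to 4337 in ΔUNG_2. Changes of members that were not called reversed as follows. Leaving out 1 library gave Gdf15 -0.58 to 0.13 in the control and -0.27 to 0.13 in ΔUNG_2, Rps27l -0.16 to 0.26 in the control, Sesn2 -0.16 to 0.37 in ΔUNG, and Sesn1 -0.12 to 0.0865 and Rrm2b -0.0265 to 0.16 in ΔUNG_2. Rps27l became -0.0165 in the control with the same FPKM sum and 0.0316 in ΔUNG_2 with the replicate block.

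Clone against control counts moved more. For ΔUNG under DMSO, the number higher became 0 with no filter, the same FPKM sum, no trend, only the groups compared and the replicate block, and 0 to 1 without 1 library. The number lower became 4 with a pseudocount of 0.1 and with limma-voom, 1 with the same FPKM sum and 1 to 3 without 1 library. For ΔUNG_2 under DMSO, the number higher became 0 with the same FPKM sum, 2 with only the groups compared and with limma-voom, and 0 without 1 library, where the number lower was 1 to 2. For ΔUNG under ATRi, the number higher became 2 with no filter, no trend and the replicate block, 1 with the same FPKM sum, 0 with only the groups compared, 0 to 2 without 1 library, 5 with a pseudocount of 1 and with median ratios, and 6 with limma-voom; the number lower became 1 with limma-voom and was 0 to 1 without 1 library. For ΔUNG_2 under ATRi, the number higher became 5 with the filter at 2 FPKM, 0 with the same FPKM sum, no trend and only the groups compared, 1 with the replicate block, 12 with limma-voom and 1 to 3 without 1 library. The difference in response called 1 member in ΔUNG with limma-voom. In ΔUNG_2 it called 0 with no filter, the same FPKM sum, no trend, only the groups compared, the replicate block and any 1 library left out, and 5 with limma-voom. The number of all genes called moved too, so these member counts are not set apart from that background. For ΔUNG_2 under ATRi it was 567 as first fitted and 153 to 1129 over all alternatives. For ΔUNG under DMSO it was 987 and 327 to 1142. It reached 1248 for ΔUNG under ATRi (695 as first fitted) and 1217 for ΔUNG_2 under DMSO (928). For the differences in response it reached 65 in ΔUNG and 73 in ΔUNG_2, from 2 and 8. The cause of these moves was not tested.

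Replicate numbers did not pair the libraries: deviations of same-numbered libraries correlated between -0.124 and 0.0436 over 10 pairs of groups. With the replicate block, 25, 25 and 24 members rose under ATRi in control, ΔUNG and ΔUNG_2. For ΔUNG against the control under ATRi, fitted alone, the block called 1 member higher as titled and 5 with crossed numbers, a pairing chosen after seeing the data. With the same FPKM sum the median of all genes was as low as -0.13 in comparisons of clones with control and -0.07 in those of ATRi with DMSO. All genes called for ΔUNG under DMSO were then 138 higher and 189 lower in place of 619 and 368, those for ΔUNG_2 114 and 267 in place of 506 and 422; under ATRi they were 73 and 211 in place of 341 and 354, and 44 and 142 in place of 310 and 257. Fas, Eda2r and Epha2 were limited by depth, with as few as 0, 9 and 30 fragments in a DMSO library. With 2 libraries or 1 per group, a change that did not pass is not shown to be absent.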
